A study of Mus musculus with 6 samples.

Results

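The proteasome is the barrel-shaped protease that degrades ubiquitin-tagged proteins, and its subunits are encoded by the Psm genes. The genes described here were those whose symbol in the array's annotation is Psma, Psmb, Psmc, Psmd, Psme, Psmf or Psmg followed by a number and nothing else, which gave 47 genes of 18545 named genes, measured by 52 probes. They comprise 8 Psma, 11 Psmb, 6 Psmc, 14 Psmd, 4 Psme, 1 Psmf and 3 Psmg genes. Transcript levels were measured in mouse on 6 two-channel arrays that carried total RNA of testis, of epididymis (the duct in which spermatozoa mature) and of the stromal vascular fraction (SVF) of fat, which holds the progenitor, endothelial and immune cells left when adipocytes are removed. Each tissue pair was hybridised on 2 arrays with Cy3 and Cy5 exchanged. The comparisons were testis over SVF, epididymis over SVF and epididymis over testis. No treatment is named, and the labels give no strain, age or number of animals.

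The labels name each tissue without telling samples of it apart, so each tissue was taken as 1 RNA sample and both arrays of a swap as repeat hybridisations of it. No test between tissues was possible and no p-value is given. Values are log2 ratios, as mean ± SD of the 2 arrays (n = 2 hybridisations), and this error leaves out differences between animals. A gene was called higher or lower when its log2 ratio reached 1 in size (2-fold), with 1 sign, on each array of the swap. The ratio was read as Cy5 over Cy3 and as log2, which the labels do not state, so direction is likely and fold size rests on the base. In whole tissue a lower ratio can come from fewer cells of a type or from less RNA per cell, and these cannot be told apart.

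The core particle of the proteasome, the 20S barrel, is built from outer rings of alpha subunits (Psma) and inner rings of beta subunits (Psmb), of which Psmb5, Psmb6 and Psmb7 carry the proteolytic sites. In immune cells and under interferon, Psmb8, Psmb9 and Psmb10 take their places and form the immunoproteasome, which supplies peptides to MHC class I, while Psme1 and Psme2 form the PA28 activator. The 19S cap holds a ring of ATPases (Psmc) that unfold substrates and non-ATPase subunits (Psmd) that bind and remove ubiquitin. In mouse spermatocytes and spermatids the alpha subunit Psma8 takes the place of Psma7, and the activator Psme4 (PA200) acts in the removal of acetylated core histones.

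Promoter windows are shown for a pair of immune subunits with the constitutive partner of each and for Psme1. Psmb8 and Psmb9 were lower than in SVF in both other tissues and Psme1 in testis, and Psmb5 and Psmb6, called in no comparison, are shown beside the subunits that replace them. The sequences are from RefSeq on GRCm38.p6 and run from 250 bases before to 50 bases after the gene start, 5′ to 3′ on the gene's strand. Capitals mark matches, on either strand, to the core of the interferon-stimulated response element (a pair of GAAA runs with any 2 bases between them), TTCNNNGAA (gamma-activated site), TGACNNNGC (antioxidant response element, the motif through which Nfe2l1 acts on proteasome genes) or to the letters CCAAT.
Psmb8, chr17:34197945-34198244, plus strand: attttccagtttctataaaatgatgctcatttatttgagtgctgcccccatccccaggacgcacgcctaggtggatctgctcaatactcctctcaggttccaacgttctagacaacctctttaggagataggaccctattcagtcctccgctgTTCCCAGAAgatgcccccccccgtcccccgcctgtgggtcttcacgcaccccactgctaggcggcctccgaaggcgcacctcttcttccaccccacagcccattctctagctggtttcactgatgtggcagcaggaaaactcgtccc
Psmb5, chr14:54617946-54618245, minus strand: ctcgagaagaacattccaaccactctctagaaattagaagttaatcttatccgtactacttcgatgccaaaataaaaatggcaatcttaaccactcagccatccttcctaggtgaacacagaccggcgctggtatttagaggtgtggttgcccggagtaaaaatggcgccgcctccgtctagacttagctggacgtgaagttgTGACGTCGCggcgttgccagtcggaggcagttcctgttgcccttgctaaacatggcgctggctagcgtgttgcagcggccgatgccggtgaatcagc
Psmb9, chr17:34187281-34187580, minus strand: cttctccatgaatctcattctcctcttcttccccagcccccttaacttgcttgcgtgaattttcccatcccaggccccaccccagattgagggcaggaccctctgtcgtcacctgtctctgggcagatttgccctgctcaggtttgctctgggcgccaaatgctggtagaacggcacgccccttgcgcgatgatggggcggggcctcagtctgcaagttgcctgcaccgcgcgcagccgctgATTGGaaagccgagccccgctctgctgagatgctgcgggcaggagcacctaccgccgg
Psmb6, chr11:70525107-70525406, plus strand: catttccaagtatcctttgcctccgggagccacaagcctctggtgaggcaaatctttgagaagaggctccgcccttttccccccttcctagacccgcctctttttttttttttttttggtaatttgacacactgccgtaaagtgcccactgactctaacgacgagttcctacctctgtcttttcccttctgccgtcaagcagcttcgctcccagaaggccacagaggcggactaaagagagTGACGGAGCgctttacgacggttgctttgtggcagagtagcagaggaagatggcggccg
Psme1, chr14:55578244-55578543, plus strand: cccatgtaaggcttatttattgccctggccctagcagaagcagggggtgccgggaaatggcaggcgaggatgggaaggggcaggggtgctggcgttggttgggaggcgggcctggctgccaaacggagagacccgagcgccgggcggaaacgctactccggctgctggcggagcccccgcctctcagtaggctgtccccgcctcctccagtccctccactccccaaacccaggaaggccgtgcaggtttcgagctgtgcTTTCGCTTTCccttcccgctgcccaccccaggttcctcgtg

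The Psmb8 window held a gamma-activated site match whose first base was at -97 from the gene start, and the Psme1 window held a response element match that began at base 10 of the transcribed side. Both constitutive partners held an antioxidant response element match, and Psmb9 held only a CCAAT match. Each of the 5 windows held 1 match, so no matches overlapped in them. Over all 32851 promoter windows of this length the motifs were present in 3.44%, 8.30%, 12.4% and 37.4%, in the order given above. Of the 42 windows of 39 Psm genes with an entry, 4, 3, 6 and 14 held them. Psmb7 had no entry. A match in letters is a description of the sequence and was not linked to binding.

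Of the 47 Psm genes, testis exceeded SVF in 9 (19.1%), against 20.7% of all named genes, and 6 (12.8%) were lower in testis, against 16% (either way 36.7% of named genes). Between epididymis and SVF 3 genes (6.38%) were higher in epididymis, against 10.2%, and 3 (6.38%) were lower, against 8.68% (either way 18.9%). In epididymis over testis 7 (14.9%) were higher, against 14.3%, and 9 (19.1%) were lower, against 18% (either way 32.3%). The shares called were near or below those of all named genes, and the direction varied by class. The median log2 ratio of the 47 genes was 0.18, 0.33 and -0.07 in the same order, against 0.00, 0.07 and 0.00 for all named genes. Without the second array of each swap the counts higher were 17, 9 and 13. Without the first array of epididymis over SVF the count lower was 5. In all, 21 genes (44.7%) were called in at least 1 comparison, against 47.1% of named genes, and 26 in none, against 52.9%. Testis exceeded both other tissues by the rule for 8 genes (17%), against 15.6%, namely Psma6, Psma8, Psmc2, Psmc3, Psmd2, Psmd8, Psmf1 and Psmg2. No Psm gene was lower in epididymis than in both other tissues, against 0.927%. Psm genes below 0 on both arrays were 17 (36.2%) in testis over SVF, against 38.4% of named genes. They were 6 (12.8%) in epididymis over SVF, against 29.7%, and 22 (46.8%) in epididymis over testis, against 38.2%. Below 0 on both arrays of testis over SVF and above 0 on both of epididymis over SVF were 8 Psm genes (17%), against 9.7% of named genes, and none had the reverse signs, against 5.87%.

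**Figure D1:**
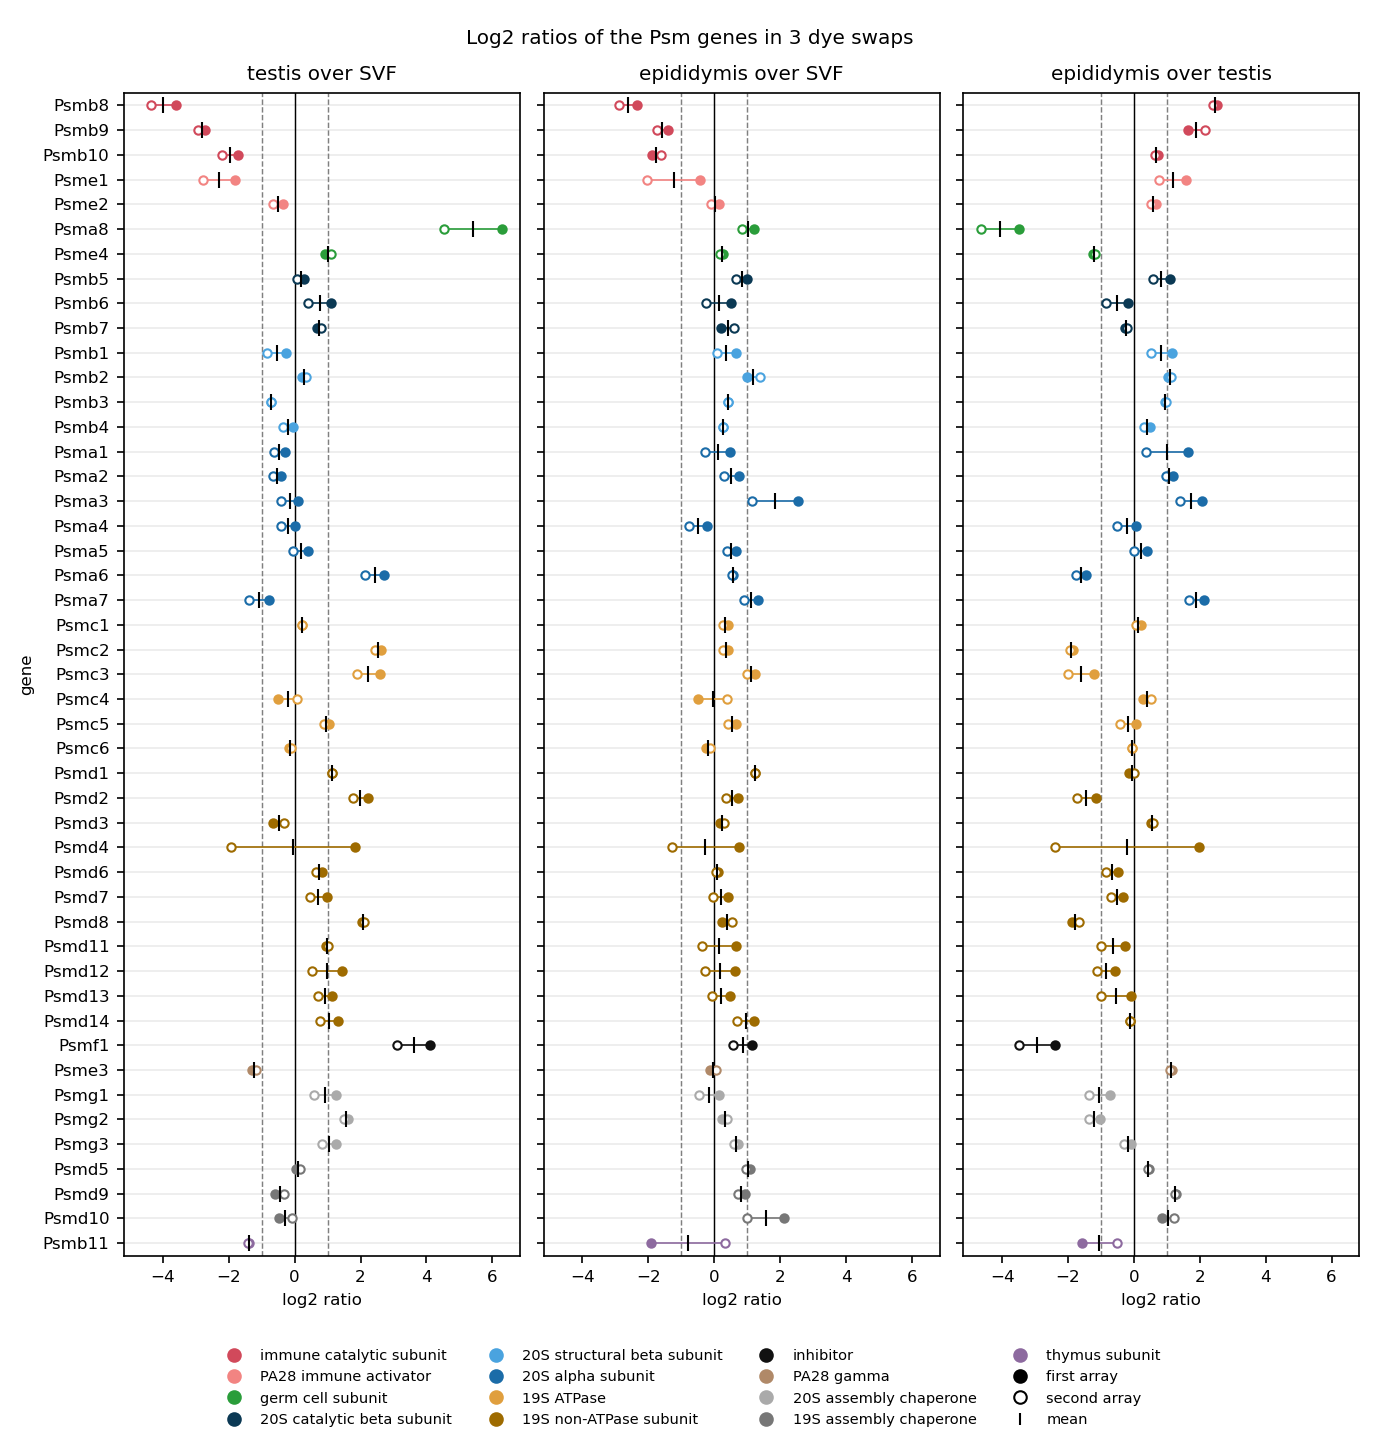
Log2 ratios (horizontal axes) of the 47 Psm genes (rows, by class) in the 3 dye swaps. Filled and open points are the first and second array, black ticks their mean, and dashed lines mark 2-fold; Psmb8, Psmb9 and Psmb10 lie left of the line in both comparisons over SVF, and Psma8 and Psmf1 lie farthest right in testis over SVF.

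The catalytic immune subunits were lower in testis and in epididymis than in SVF. Of the 5 immune subunits, the 3 catalytic subunits and Psme1 were lower in testis than in SVF, against 16% of named genes. The 3 catalytic subunits were lower in epididymis than in SVF, against 8.68%. The class medians were -2.29 in testis over SVF, -1.57 in epididymis over SVF and 1.17 in epididymis over testis, the last being 0.77 without the first array of its swap and 1.58 without the second. Psmb8, which replaces the chymotrypsin-like site Psmb5, read -3.61 and -4.36 in testis over SVF, a 15.8-fold lower level in testis (-3.98 ± 0.52). In epididymis over SVF it read -2.35 and -2.89 (-2.62 ± 0.38, 6.14-fold), and in epididymis over testis 2.52 and 2.40 (2.46 ± 0.08, 5.49-fold). Both arrays of every swap thus placed Psmb8 highest in SVF, next in epididymis and lowest in testis.

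Psmb9, which replaces the caspase-like site Psmb6, followed the same order. It read -2.71 and -2.93 in testis over SVF (-2.82 ± 0.16, 7.07-fold). In epididymis over SVF it read -1.42 and -1.73 (-1.57 ± 0.22), and in epididymis over testis 1.63 and 2.14 (1.89 ± 0.36). Psmb10, which replaces the trypsin-like site Psmb7, read -1.71 and -2.19 in testis over SVF (-1.95 ± 0.34) and -1.90 and -1.61 in epididymis over SVF (-1.76 ± 0.20). Its epididymis over testis values of 0.72 and 0.65 (0.68 ± 0.05) were above 0 on both arrays and did not reach 2-fold. By the 2-fold rule SVF exceeded both other tissues for these 3 genes (6.38% of the 47), against 6.95% of named genes. For no other Psm gene did SVF exceed both. Psmb8 and Psmb9, with Psme3, were also the only Psm genes called lower in testis than in both other tissues (6.38%), against 7.97% of named genes.

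The direct ratio of Psmb8 in epididymis over testis was larger than the difference of its ratios over SVF, and its sum around the loop of comparisons, which is 0 without error, was 1.09. Only Psmb11, at -1.66, also exceeded 1 in size among the 47 genes. The least-squares loop estimates of Psmb8 were -4.35, -2.25 and 2.09 in testis over SVF, epididymis over SVF and epididymis over testis, with the same order of tissues.

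The PA28 subunits differed from each other. Psme1 (PA28 alpha) read -1.80 and -2.78 in testis over SVF (-2.29 ± 0.69, 4.89-fold), whereas Psme2 (PA28 beta) read -0.35 and -0.66 (-0.51 ± 0.22). In epididymis over SVF, Psme1 read -0.43 and -2.03 (-1.23 ± 1.13) and Psme2 read 0.16 and -0.09 (0.03 ± 0.17), so neither was called and the arrays of Psme1 were far apart. Psme1 minus Psme2 was -1.78 ± 0.47 log2 units in testis over SVF, although the proteins form a joint ring and the genes lie close together, with Emc9 between them in the RefSeq gene order.

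Markers of leukocytes, stromal cells and endothelial cells were read beside the immune subunits. Of 6 leukocyte markers, 5 were lower in testis than in SVF (median -3.62, from -5.54 for Ptprc to -0.23 for Itgam). Epididymis over SVF had 4 of 6 lower and Cd52, which is also an epididymal secretory product, was higher (median -2.65). In epididymis over testis 3 of 6 were higher (median 1.43). All 4 stromal markers were lower in testis than in SVF (median -4.96), 3 were lower in epididymis than in SVF (median -2.41) and all 4 were higher in epididymis than in testis (median 2.98). Of 3 endothelial markers, 2 were lower in each comparison over SVF (medians -1.61 in testis and -2.00 in epididymis) and none was called in epididymis over testis. The part of these cell types in the immune subunit ratios was not tested.

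The immune subunits were also set against the subunits they replace within each array, which cancels any centring of the array. Psmb8 minus Psmb5 was -3.89 and -4.44 in testis over SVF (-4.17 ± 0.39) and -3.35 and -3.55 in epididymis over SVF (-3.45 ± 0.14). Psmb9 minus Psmb6 was -3.58 ± 0.35 and -1.71 ± 0.31, and Psmb10 minus Psmb7 was -2.68 ± 0.43 and -2.16 ± 0.09, in the same order. The mean over the 3 pairs was -3.48 ± 0.15 in testis over SVF (11.1-fold), -2.44 ± 0.03 in epididymis over SVF (5.42-fold) and 1.65 ± 0.34 in epididymis over testis (3.14-fold). Every pair had the same sign on both arrays of a swap. The differences compare ratios between genes and do not give the share of immunoproteasome in a tissue.

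**Figure D2:**
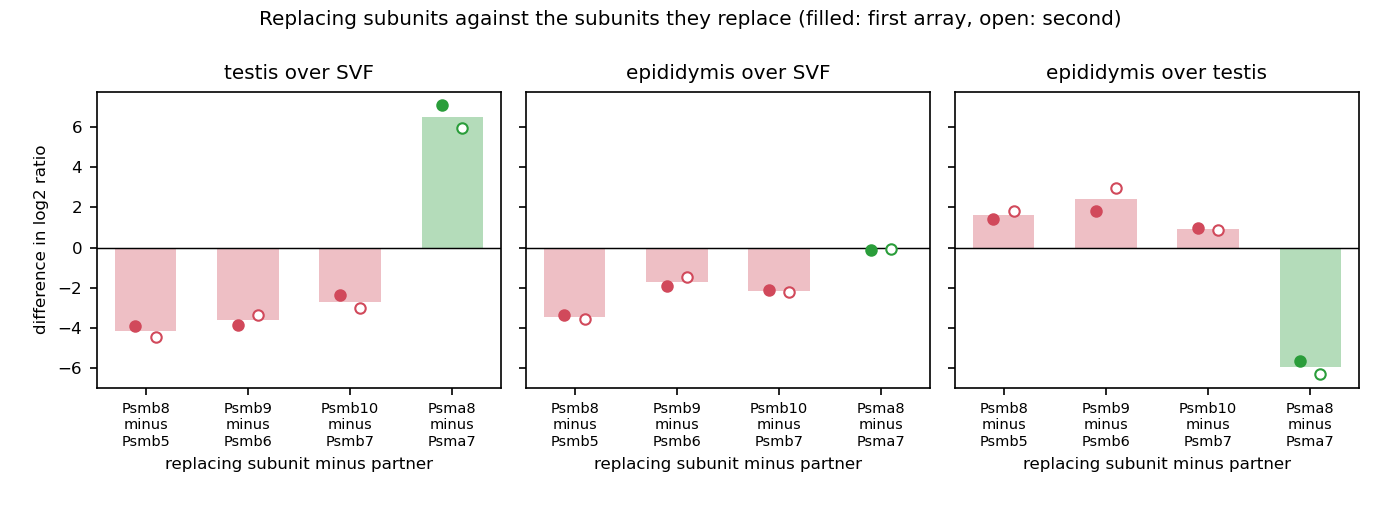
Difference in log2 ratio (vertical axes) between a replacing subunit and the subunit it replaces, in the 3 dye swaps; bars are means and points the single arrays. The immune subunits lie below 0 in both comparisons over SVF, and Psma8 minus Psma7 lies at 6.50 in testis over SVF, near 0 in epididymis over SVF and at -5.95 in epididymis over testis.

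The germ cell alpha subunit had the largest ratio of all 47 genes. Psma8 read 6.29 and 4.53 in testis over SVF, which is 42.6-fold higher in testis (5.41 ± 1.25). Epididymis over testis gave -3.48 and -4.63 (-4.05 ± 0.81, 16.6-fold lower in epididymis). Its ratio of epididymis over SVF was 1.22 and 0.85 (1.03 ± 0.26) and was not called. The somatic partner Psma7 ran the other way in the comparisons that carried testis. It read -0.77 and -1.40 in testis over SVF (-1.08 ± 0.45) and 2.14 and 1.66 in epididymis over testis (1.90 ± 0.34). In epididymis over SVF it had the same sign as Psma8, at 1.33 and 0.92 (1.12 ± 0.29). Psma8 minus Psma7 was 7.06 and 5.93 in testis over SVF (6.50 ± 0.80, 90.2-fold), and -0.11 and -0.06 in epididymis over SVF. The difference between these related alpha subunits was thus far from 0 where testis was compared and near 0 in epididymis over SVF, and neither comparison over SVF called Psma7 itself.

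Psme4, the activator that binds acetylated histones, was 2.03-fold higher in testis than in SVF (0.94 and 1.11) as a mean of its probes, which did not meet the rule, and 2.31-fold lower in epididymis than in testis (-1.23 and -1.19), which did. The probes disagreed. On the first, testis over SVF was -1.02 and -0.27 and epididymis over testis was -0.45 and 0.27. On the second, testis over SVF was 2.90 and 2.49 (2.69 ± 0.29) and epididymis over testis was -2.01 and -2.65 (-2.33 ± 0.45). The Psme4 ratio thus rests on 1 of its 2 probes. Psme3 (PA28 gamma), the nuclear activator, was lower in testis than in SVF at -1.30 and -1.17 (-1.23 ± 0.09) and higher in epididymis than in testis at 1.17 and 1.10 (1.13 ± 0.04), with -0.12 and 0.06 in epididymis over SVF.

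Psmf1 encodes PI31, first described as an inhibitor of the core particle. It had the second largest ratio in testis over SVF, at 4.11 and 3.11 (3.61 ± 0.70, 12.2-fold higher in testis). Epididymis over testis gave -2.41 and -3.49 (-2.95 ± 0.77, 7.73-fold lower in epididymis), and in epididymis over SVF 1.16 and 0.56 (0.86 ± 0.42). Testis exceeded both other tissues for Psmf1 on all 4 arrays that carried testis RNA.

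Germ cell markers were read beside Psma8, Psme4 and Psmf1. Of 7 markers 6 were higher in testis than in SVF (median 3.90), and 4 exceeded the 2-fold rule in epididymis over SVF (median 1.77). Their means ran from -0.23 for Sycp3 to 5.58 for Sycp1 in testis over SVF and from -0.23 for Sycp3 to 2.27 for Ddx4 in epididymis over SVF. In epididymis over testis 4 of 7 were lower (median -3.43). How far the testis ratios follow germ cell content was not tested.

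**Figure D3:**
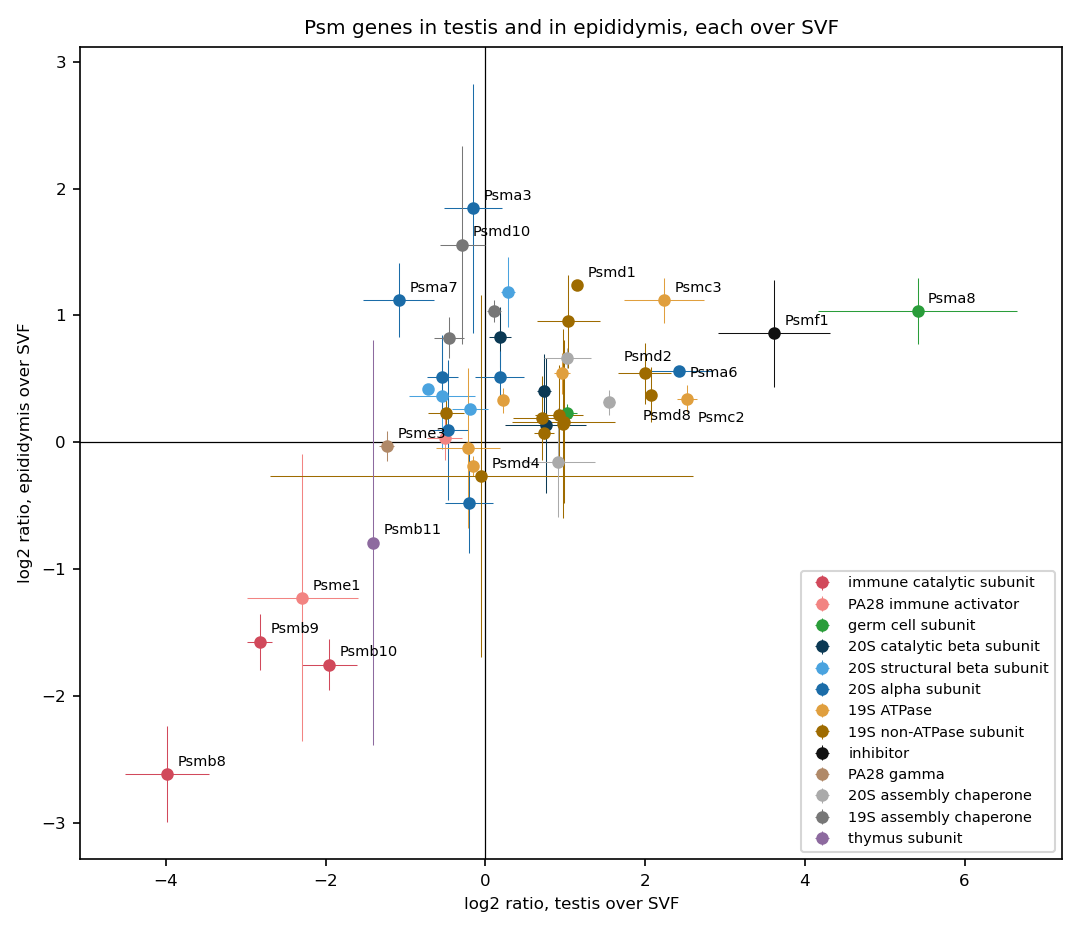
Mean log2 ratio of each Psm gene in testis over SVF (horizontal axis) and epididymis over SVF (vertical axis), coloured by class, with bars for the SD of 2 hybridisations. Both axes share the SVF RNA; the immune subunits other than Psme2 lie at lower left, Psma8 and Psmf1 at far right, and most 20S and 19S subunits between -1 and 1 on both axes.

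The constitutive 20S subunits had a narrower middle 50% of ratios than all named genes in each comparison. Of the 14, only the alpha subunit Psma6 was called in testis over SVF, against 36.7% of named genes called either way. The other 13 means lay between -1.08 and 0.76. The class median was -0.17, with single-array medians of 0.06 and -0.38 that differed in sign, with a middle 50% of genes 0.77 wide, against 1.69 for all named genes. Psma6 read 2.71 and 2.15 (2.43 ± 0.40, 5.39-fold higher in testis) and -1.46 and -1.75 in epididymis over testis (-1.60 ± 0.21), with 0.58 and 0.54 in epididymis over SVF. Its values were apart from those of the other alpha subunits, Psma1 to Psma5 and Psma7, which had means from -1.08 to 0.18 in testis over SVF.

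Over SVF in epididymis, the 14 subunits had a median of 0.47 and 11 were above 0 on both arrays, against 38.3% of named genes, while 1 was below 0 on both. The middle 50% of the 14 was 0.48 wide in that comparison, against 1.01 for all named genes. The alpha subunit Psma3 was the only one called, against 18.9% of named genes called either way. It read 2.54 and 1.15 (1.84 ± 0.98, 3.59-fold higher in epididymis). The structural beta subunit Psmb2 stood at 0.99 and 1.38 (1.18 ± 0.28), just short of the rule. In epididymis over testis the median was 0.83 (0.44 without the first array and 0.99 without the second). There 10 subunits were above 0 on both arrays, against 37.9% of named genes. Psma3, Psma7 and Psmb2 were called higher, against 14.3% of named genes, and Psma6 lower, against 18%. The middle 50% of the 14 subunits there was 1.17 wide, against 1.53 for all named genes. Psma3 read 2.06 and 1.40 (1.73 ± 0.46) and Psmb2 1.04 and 1.13 (1.09 ± 0.07). Psma3 was the only Psm gene called higher in epididymis than in both other tissues (2.13%), against 4.34% of named genes.

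The constitutive catalytic subunits were called in no comparison, against 52.9% of named genes. Psmb5 had means of 0.18 ± 0.14, 0.83 ± 0.24 and 0.83 ± 0.37, Psmb6 of 0.76 ± 0.51, 0.13 ± 0.53 and -0.51 ± 0.46, and Psmb7 of 0.73 ± 0.09, 0.40 ± 0.29 and -0.24 ± 0.04, in testis over SVF, epididymis over SVF and epididymis over testis. All 3 were above 0 on both arrays in testis over SVF, as was the structural beta subunit Psmb2 at 0.22 and 0.35, while the other structural beta subunits, Psmb1, Psmb3 and Psmb4, were below 0 on both, at -0.54 ± 0.41, -0.72 ± 0.01 and -0.19 ± 0.22. In epididymis over SVF these 3 were above 0 on both arrays, at 0.36 ± 0.41, 0.42 ± 0.00 and 0.26 ± 0.01.

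The ATPases of the 19S ring were divided. Psmc2 read 2.61 and 2.43 in testis over SVF (2.52 ± 0.13, 5.75-fold higher in testis) and -1.84 and -1.95 in epididymis over testis (-1.90 ± 0.08). Psmc3 read 2.59 and 1.88 (2.23 ± 0.50, 4.71-fold) and -1.22 and -1.99 (-1.60 ± 0.54). The other 4 ATPases were called in no comparison, against 52.9% of named genes, although each ring holds 1 copy of each. Psmc5 came nearest, at 1.04 and 0.89 in testis over SVF, and Psmc1, Psmc4 and Psmc6 stood at 0.22 ± 0.02, -0.21 ± 0.40 and -0.15 ± 0.04. Psmc6 ran from -0.24 to -0.05 over the 6 arrays.

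Of the 11 non-ATPase subunits of the 19S cap, 9 were above 0 on both arrays of testis over SVF, against 39.9% of named genes. In that comparison 3 were called higher, against 20.7% of named genes. The median was 0.98, with 1.15 and 0.71 on the single arrays. The subunits called were Psmd2 (2.00 ± 0.33, 3.99-fold higher in testis), which docks ubiquitin receptors and shuttle proteins, Psmd8 (2.08 ± 0.06, 4.21-fold) and Psmd1 (1.15 ± 0.00, 2.21-fold), a scaffold of the base. Psmd2 and Psmd8 were lower in epididymis than in testis, at -1.44 ± 0.40 and -1.78 ± 0.15. Psmd1 read 1.25 and 1.22 in epididymis over SVF (1.24 ± 0.02), and -0.07 ± 0.09 in epididymis over testis. It was the only Psm gene for which SVF was called below both other tissues (2.13%), against 4.99% of named genes. The deubiquitinase Psmd14 was at 1.32 and 0.76 in testis over SVF and 1.21 and 0.69 in epididymis over SVF, just short of the rule in both.

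The non-ATPase subunits Psmd6, Psmd7, Psmd11, Psmd12 and Psmd13 had means from 0.71 to 0.98 in testis over SVF. Their means ran from -0.85 to -0.50 in epididymis over testis, and none of these subunits was called. Psmd3 differed in direction, at -0.49 ± 0.23 and 0.55 ± 0.03. The probes of Psmd11 differed in size, with means of 1.53 and 0.42 in testis over SVF. Psmd4, a ubiquitin receptor, could not be placed. It read 1.82 and -1.92 in testis over SVF, 0.74 and -1.28 in epididymis over SVF and 1.97 and -2.39 in epididymis over testis, so whichever tissue carried Cy5 was read as higher. Its dye effect averaged 1.69 log2 units, and no other Psm gene exceeded 1 in size, against 2.57% of named genes.

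Of the 6 assembly factors, Psmg2, Psmd9 and Psmd10 were called in at least 1 comparison, against 47.1% of named genes. The chaperones of the alpha ring, Psmg1, Psmg2 and Psmg3, were above 0 on both arrays in testis over SVF, at 0.91 ± 0.47, 1.55 ± 0.08 and 1.03 ± 0.30, and below 0 on both in epididymis over testis, at -1.05 ± 0.44, -1.20 ± 0.23 and -0.19 ± 0.14. Of these only Psmg2 was called, in both. In epididymis over SVF they stood at -0.16 ± 0.43, 0.31 ± 0.10 and 0.66 ± 0.08. The probes of Psmg3 had opposite signs in epididymis over testis, at 0.27 ± 0.03 and -0.65 ± 0.30. The chaperones of the 19S base, Psmd5, Psmd9 and Psmd10, stood at 0.11 ± 0.08, -0.45 ± 0.19 and -0.29 ± 0.28 in testis over SVF and at 1.04 ± 0.09, 0.82 ± 0.16 and 1.56 ± 0.78 in epididymis over SVF. In epididymis over testis all 3 were above 0 on both arrays, at 0.44 ± 0.03, 1.26 ± 0.01 and 1.04 ± 0.26. By the 2-fold rule, Psmd10 (gankyrin), an X-linked gene, was higher in epididymis than in SVF and Psmd9 was higher in epididymis than in testis.

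Psmb11, a subunit known from cortical epithelium of the thymus, read -1.39 and -1.41 in testis over SVF, which met the rule, -1.92 and 0.33 in epididymis over SVF and -1.59 and -0.51 in epididymis over testis. Its signs differed between the arrays of epididymis over SVF and its loop sum was the largest of the 47 genes, so no order of tissues is given. Spot intensities were not analysed here, and which Psm genes were above background is not known.

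Genes that supply peptides to MHC class I were set beside the immune subunits. Of 10 listed, 8 were measured, and 7 were lower in testis than in SVF, against 16% of named genes (median -2.59). B2m, the light chain of MHC class I, stood at -4.01 ± 0.36, H2-K1 at -3.08 ± 0.27 and the peptide trimming enzyme Erap1 at -2.25 ± 0.15. In epididymis over SVF 6 were below 0 on both arrays, against 29.7% of named genes (median -0.74). Called lower there were 2, against 8.68%, namely Tap2 (-1.94 ± 0.46) and Irf1 (-3.36 ± 0.36), the interferon-induced factor that acts on immunoproteasome genes. B2m, H2-K1, H2-D1 and Erap1 stood there at -0.45 ± 0.67, -0.78 ± 0.54, -0.70 ± 0.38 and -0.21 ± 0.17, while Psmb8, Psmb9 and Psmb10 were called lower. The transporter genes Tap1 and Tap2, which flank Psmb8 in the RefSeq gene order, stood at -1.28 ± 0.11 and -2.23 ± 0.07 in testis over SVF and at -1.04 ± 0.30 and -1.94 ± 0.46 in epididymis over SVF. In epididymis over testis 5 of the 8 were called higher, against 14.3% of named genes, namely B2m, H2-K1, H2-D1, Erap1 and Irf1. Neither Tap gene was. The loop sum of Irf1 was 1.64, and its ratio of 2.01 in epididymis over testis became 1.47 by the loop estimate.

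**Figure D4:**
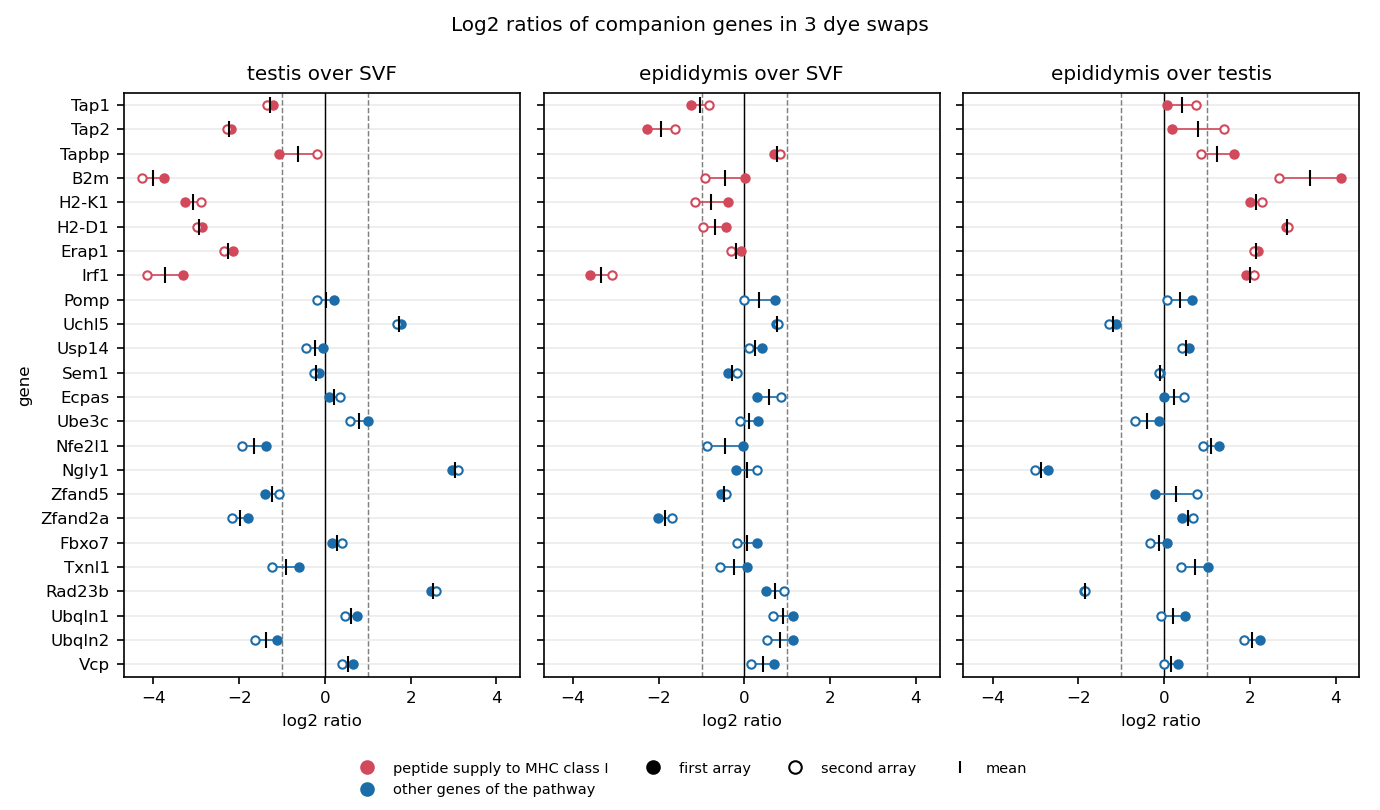
Log2 ratios (horizontal axes) of the 8 measured genes of peptide supply to MHC class I and 16 measured other genes of the proteasome pathway (rows) in the 3 dye swaps, with symbols as in the plot of Psm genes. Ngly1 and Rad23b lie right of the 2-fold line in testis over SVF and left of it in epididymis over testis, and B2m, H2-K1, H2-D1 and Erap1 lie nearer 0 in epididymis over SVF than in testis over SVF.

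Of 23 other genes of the pathway 16 were measured. In testis over SVF 3 were higher, against 20.7% of named genes, and 4 lower, against 16%. In epididymis over SVF none was higher, against 10.2%, and 1 was lower, against 8.68%. In epididymis over testis 1 was higher, against 14.3%, and 3 were lower, against 18%. Ngly1, which removes glycans and is needed to activate Nfe2l1, read 2.97 and 3.11 in testis over SVF (3.04 ± 0.10, 8.23-fold higher in testis) and -2.71 and -3.02 in epididymis over testis. Rad23b, a shuttle for ubiquitinated proteins that binds Ngly1, read 2.48 and 2.58 (2.53 ± 0.07, 5.79-fold) and -1.87 and -1.85. The cap-bound deubiquitinase Uchl5 stood at 1.73 ± 0.07 and -1.20 ± 0.11 in those comparisons.

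Nfe2l1, the transcription factor that raises proteasome genes when proteasome activity falls, was lower in testis than in SVF at -1.38 and -1.94 (-1.66 ± 0.39). Also lower in testis were the proteasome-associated proteins Zfand5 (-1.23 ± 0.23) and Zfand2a (-1.98 ± 0.27), and the X-linked shuttle Ubqln2 (-1.37 ± 0.37). Zfand2a was lower in epididymis than in SVF (-1.86 ± 0.22), and Ubqln2 was higher in epididymis than in testis (2.06 ± 0.26). The other 9 measured genes of the pathway, with means from -0.91 to 0.89, were called in no comparison, against 52.9% of named genes.

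All 6 measured duct markers were higher in epididymis than in both other tissues, with a median of 5.96 over SVF. Among the germ cell markers Sycp3 was not called in any comparison, with arrays of opposite sign in all 3. The arrays of a swap correlated as deposited, over all probes, with Pearson's r of -0.86, -0.64 and -0.77 for testis and SVF, epididymis and SVF, and epididymis and testis. With exchanged arrays turned to 1 direction, r over the 47 genes was 0.92, 0.73 and 0.85, and the points share RNAs and arrays. The median SD between arrays was 0.24, 0.24 and 0.25 for Psm genes and 0.33, 0.37 and 0.35 for all named genes.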

How the data were processed

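Total RNA of 3 mouse tissues was compared on 6 two-channel arrays, and the deposited table holds 1 log ratio for each of 25344 probes and array, read here as log2. The labels and headers give no scanner, background correction, normalization, base or direction. Column medians as deposited were 0.005, 0.114, 0.044, 0.048, 0.007 and 0.010, and values ran from -8.41 to 10.25. Ratios were read as Cy5 over Cy3, and exchanged arrays were multiplied by -1.

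Probe names came from the platform annotation of 21112 probes. RefSeq genes (GRCm38.p6) took 20456 of them through the gene ID and 220 through the symbol, 248 kept the annotated name, and 158 with no mouse name and 30 with several genes were left out. Probes of a gene were averaged, and 5 Psm genes had 2 probes. The 47 members, the gene lists and the rule for named genes (all members, and list genes called in any comparison) were chosen with earlier results of these data known. Calls needed 2-fold on both arrays. Alternatives were median centring, a least-squares loop estimate, 1 probe per gene, other call rules, natural logarithms and each array left out. Python 3.11.15 and pandas 2.3.3 were used. The number of arrays limits the precision.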

Additional observations from a re-analysis of the deposited data

Results flagged for a closer look

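There were 8 Psm genes below 0 on both arrays of testis over SVF and above 0 on both of epididymis over SVF. They made up 17% of the 47, against 9.7% of named genes, and no Psm gene had the reverse signs, against 5.87%. By the 2-fold rule none of them was called in testis over SVF, and only Psmd10 was called in epididymis over SVF. The difference between the ratios, testis over SVF minus epididymis over SVF, was -2.20 for Psma7, -1.85 for Psmd10, -1.27 for Psmd9, -1.14 for Psmb3, -1.05 for Psma2, -0.91 for Psmb1, -0.72 for Psmd3 and -0.45 for Psmb4. The negative sign of each difference follows from how the 8 genes were picked. The differences were not tested, and both ratios share the SVF RNA. The direct ratios of epididymis over testis were 1.90, 1.04, 1.26, 0.95, 1.07, 0.83, 0.55 and 0.39 in the same order.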

How the results depend on the processing

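Median centring, 1 probe per gene and the requirement of a value on all 6 arrays moved none of the 21 summary values (counts and class medians) beyond the spread between arrays or by 1.5 times, and no table value was missing. Spot intensities were not analysed here, so no other background correction or filter on dim probes was run. The constitutive 20S median in testis over SVF ran from -0.38 to 0.06 on single arrays, across 0. In the order testis over SVF, epididymis over SVF and epididymis over testis, the counts higher were 5, 0 and 1 at 4-fold, 17, 12 and 12 at 1.5-fold and 15, 10 and 11 with natural logarithms, and the counts lower were 2, 1 and 2 at 4-fold. On the mean alone, 8 were higher in epididymis over SVF and 11 in epididymis over testis. By the loop estimate 6 were higher and 5 lower in epididymis over SVF, and 11 were higher in epididymis over testis. The loop estimate of the immune minus partner difference was -3.68 in testis over SVF and -2.23 in epididymis over SVF. With natural logarithms these differences were -5.01, -3.52 and 2.38. The immune medians over SVF were then -3.30 in testis and -2.27 in epididymis, the ATPase medians 0.86 and 0.48, the non-ATPase median in testis over SVF 1.41, and the constitutive 20S median in epididymis over SVF 0.68. With the catalytic immune subunits alone, the median in epididymis over testis was 1.89. On single arrays the counts higher ranged from 11 to 17, from 4 to 9 and from 8 to 13, the count lower in epididymis over SVF from 4 to 5, and the ATPase median there from 0.33 to 0.41.  The looser counts follow from the construction of the rules, and the cause of the other changes was not tested. No paired analysis was possible because no test between tissues can be made with each tissue taken as 1 RNA sample.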

Other observations

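Genes and probes with near names, left out of the 47, gave the following values. Psmc3ip, whose product acts in meiotic recombination and is not a proteasome subunit, read 3.10 and 4.80 in testis over SVF (3.95 ± 1.20, 15.5-fold higher in testis), 1.24 and 1.32 in epididymis over SVF and -3.55 and -4.21 in epididymis over testis. Psme3ip1, named for its binding to Psme3, stood at 0.44 ± 0.14, -0.23 ± 0.11 and -0.47 ± 0.29 and was not called. A probe with the human symbol PSMB2 read 0.66 ± 0.15, 1.38 ± 0.03 and 1.16 ± 0.10, beside 0.28 ± 0.09, 1.18 ± 0.28 and 1.09 ± 0.07 for mouse Psmb2. The 3 probes with the human symbol PSMB4 disagreed, with means of 0.01, -0.19 and -1.81 in testis over SVF.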
